A study of Homo sapiens with 12 samples.

Results

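The genes encoded by mitochondrial DNA were followed in SH-SY5Y, an established line from a human neuroblastoma that often stands in for neurons. Members were all rows of the count table whose Ensembl identifier maps to a symbol starting with MT-. The rule found 37 of 60710 rows: 13 protein genes, 2 ribosomal RNA (rRNA) genes and 22 transfer RNA (tRNA) genes. The study profiled compounds that activate NRF2, a transcription factor of antioxidant genes, and holds 12 libraries in 4 groups of 3. Cells received 5 µM HPPE, 5 µM zinc protoporphyrin or 5 µM tin protoporphyrin in DMSO, or DMSO alone as the control, and all were lysed after 5 h. All groups therefore share the solvent. The labels do not spell out HPPE. The 2 protoporphyrins share the ring of heme and differ in the metal ion it holds. The material is 1 established tumour line, and the labels do not say whether the 3 libraries of a group came from separate cultures, so p-values measure the spread between these libraries.

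Human mitochondrial DNA is a small circle that is transcribed from both strands into long precursors, from which the tRNAs are cut out and the mRNAs and rRNAs released. The mRNAs encode core subunits of respiratory complexes I, III and IV and of the ATP synthase, and most of them receive a short poly(A) tail that in several genes also completes the stop codon. The rRNAs and tRNAs serve the mitochondrial ribosome, and all proteins that transcribe, process and degrade these RNAs are made from nuclear genes.

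The position of the genes bears on how their reads could be counted, and so the stretches where members touch are shown first, as in GENCODE release 29 on GRCh38 and written 5′ to 3′. Of the 37 members, 28 lie on the plus strand of the reference and 9, among them MT-ND6 as the one protein gene, on the minus strand. MT-ATP8 (chrM:8366-8572, plus strand) and MT-ATP6 (chrM:8527-9207, plus strand) encode 2 subunits of the ATP synthase and share 46 bases, in capitals in the end of the former (chrM:8513-8572) and the start of the latter (chrM:8527-8586).
MT-ATP8 last 60 bases: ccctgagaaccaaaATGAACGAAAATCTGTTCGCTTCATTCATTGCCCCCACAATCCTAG
MT-ATP6 first 60 bases: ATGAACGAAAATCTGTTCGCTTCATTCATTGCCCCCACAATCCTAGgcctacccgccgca
The complex I genes MT-ND4L (chrM:10470-10766, plus strand) and MT-ND4 (chrM:10760-12137, plus strand) share 7 bases, again in capitals (chrM:10737-10766 and chrM:10760-10789).
MT-ND4L last 30 bases: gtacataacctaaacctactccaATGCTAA
MT-ND4 first 30 bases: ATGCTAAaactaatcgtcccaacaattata

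The next sequences show the 2 members whose counts varied most among the mRNAs, MT-ND5 (chrM:12337-14148, plus strand) and MT-ND6 (chrM:14149-14673, minus strand), both subunits of complex I. Their 3′ ends abut with no base between them, and their coding strands differ in base composition, which the capital G letters mark in the first 60 bases (chrM:12337-12396 and chrM:14614-14673).
MT-ND5 first 60 bases: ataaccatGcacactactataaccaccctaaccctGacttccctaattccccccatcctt
MT-ND6 first 60 bases: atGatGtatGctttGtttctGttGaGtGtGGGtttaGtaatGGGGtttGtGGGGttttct
G made up 35.6% of MT-ND6 and 10.6% of MT-ND5 on the coding strand, and the other mRNA genes ranged from 6.28% in MT-ATP8 to 16.2% in MT-CO1. The strand setting of the counting is not given in the sources used here, so RNA from a member and RNA copied from the opposite strand of the same bases cannot be told apart.

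In 6 of the 13 protein genes the DNA holds only the first base or bases of the stop codon, and 7 hold a complete one. The ends of 1 gene of the latter kind and 2 of the former are shown, with the bases of the stop codon in capitals: MT-CO2 (chrM:8255-8269), MT-CO3 (chrM:9976-9990) and MT-ND1 (chrM:4248-4262), all on the plus strand.
MT-CO2 last 15 bases: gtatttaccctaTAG
MT-CO3 last 15 bases: attgatgagggtctT
MT-ND1 last 15 bases: tccccctcaaaccTA
The other 4 genes with an incomplete stop codon were MT-ND2, MT-ND3, MT-ND4 and MT-CYB.

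Depth ran from 1337028 counts (zinc protoporphyrin 1) to 9145399 (tin protoporphyrin 2), and DMSO control 3 was the second shallowest library with 1514595. Of 10 noradrenergic neuroblastoma markers, 9 had more than 3 counts in every library, with a summed level of 3776 to 4427 CPM (counts scaled to a library of 1e+06) in the control, 3775 to 3835 with HPPE, 3226 to 3709 with zinc and 3511 to 4058 with tin protoporphyrin, so that the zinc protoporphyrin libraries lay below those of the control and HPPE. TH, which encodes tyrosine hydroxylase, had at most 2 counts. Of 10 markers of other cell types, PTPRC, ALB, PECAM1 and GFAP had at most 3 counts, while COL1A1 stood at 52.4 CPM and PDGFRB at 138 CPM. The summed level of these 10 markers was 167 to 175 CPM in the control, 213 to 220 with HPPE, 190 to 204 with zinc and 199 to 220 with tin protoporphyrin. The part of these 2 marker sums in the results was not tested. HPPE 2 and HPPE 3 were more alike than any other pair of libraries of 1 group, with a chi-square of 1.11 per degree of freedom over 14245 genes against 1.49 to 17.3 for the other pairs, and were kept as 2 libraries.

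The 13 mitochondrial mRNAs together held between 4.05% and 5.75% of all counts. In the control libraries the share was 5.75%, 5.28% and 4.48%. With HPPE it was 4.71%, 4.49% and 4.33%. With zinc protoporphyrin it was 4.51%, 4.98% and 4.57%, and with tin protoporphyrin 4.05%, 5.32% and 4.15%. The groups overlapped, and the third control library lay within the ranges of HPPE and tin protoporphyrin and below every zinc protoporphyrin library. Group means were 5.17% ± 0.64 for the control, 4.51% ± 0.19 for HPPE, 4.69% ± 0.26 for zinc and 4.51% ± 0.70 for tin protoporphyrin (SD, n = 3). A two-sided exact permutation test over the 4 groups gave p = 0.392, which with 1 library left out ran from 0.0704 (without tin protoporphyrin 2) to 0.798 (without DMSO control 1). Counting error was small beside these spreads: in the shallowest library the share of 4.51% had a 95% Clopper-Pearson interval of 4.47% to 4.54%. Without molecular identifiers in the reads, such intervals speak of counting error alone. In bulk RNA, less mitochondrial RNA per cell and fewer cells rich in it cannot be told apart.

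The 2 rRNAs held a smaller share. In the control it was 2.51%, 1.98% and 1.41%, with HPPE 1.86%, 1.47% and 1.41%, with zinc protoporphyrin 2.01%, 2.40% and 2.69%, and with tin protoporphyrin 1.25%, 2.47% and 1.46%. The HPPE and zinc protoporphyrin libraries did not overlap, with means of 1.58% ± 0.25 and 2.37% ± 0.34 (SD, n = 3). The two-sided exact permutation test of that pair gave p = 0.1, the smallest that 3 against 3 libraries can give, and 0.6 after Benjamini-Hochberg adjustment over the 6 pairs of groups. Over all 4 groups the exact test gave p = 0.278, and with 1 library left out from 0.0693 (without tin protoporphyrin 2) to 0.514 (without zinc protoporphyrin 3). The ratio of rRNA to mRNA counts was 0.376 ± 0.062 in the control, 0.350 ± 0.040 with HPPE, 0.505 ± 0.074 with zinc and 0.375 ± 0.080 with tin protoporphyrin (SD, n = 3).

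**Figure D1:**
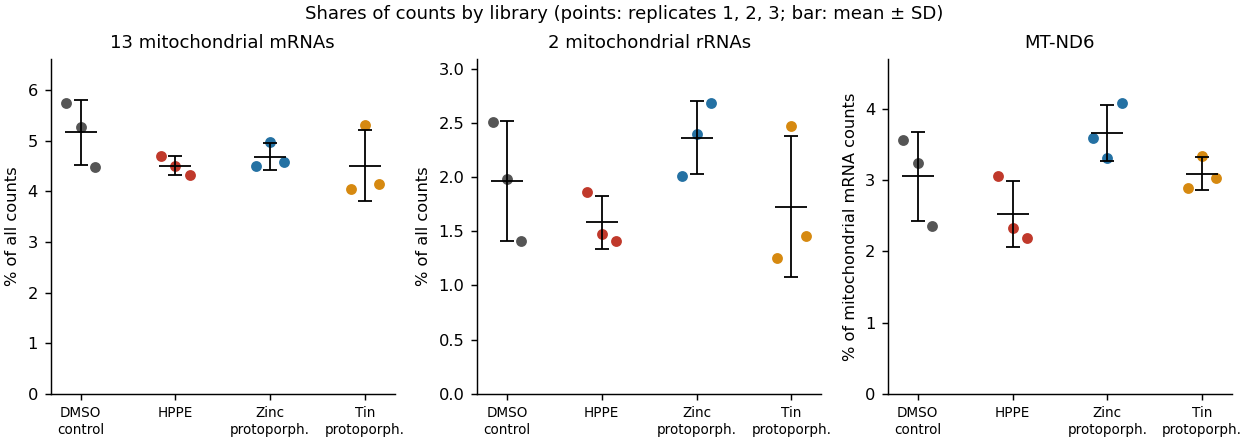
Share of counts in each library, in percent, for the 13 mitochondrial mRNAs and the 2 rRNAs (of all counts) and for MT-ND6 (of mitochondrial mRNA counts); points are replicates 1, 2 and 3 from left to right and bars the mean ± SD. The mRNA shares of the 4 groups overlap, while the HPPE points lie below the zinc protoporphyrin points for the rRNAs (at most 1.86% against at least 2.01%) and for MT-ND6 (at most 3.06% against at least 3.32%).

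Levels of different members were compared per length, as CPM, without further scaling, per kilobase of sequence not shared with another member, averaged over the 12 libraries. MT-RNR2 (chrM:1671-3229, plus strand), the RNA of the large mitochondrial ribosomal subunit, had the highest level per length, 11633. The subunits of complex IV, cytochrome c oxidase, came next, with MT-CO1 (chrM:5904-7445, plus strand) at 7602, MT-CO3 (chrM:9207-9990, plus strand) at 5974 and MT-CO2 (chrM:7586-8269, plus strand) at 5941. The ranges over libraries of the last pair overlapped almost fully, 5078 to 6775 for MT-CO3 and 5189 to 6410 for MT-CO2. MT-ND4 followed at 4873, MT-ATP6 at 3873 and MT-ND1 (chrM:3307-4262, plus strand) at 3865. MT-ATP8 stood at 3520, and MT-CYB (chrM:14747-15887, plus strand), which encodes cytochrome b of complex III, at 3252. Dividing by exclusive length takes reads in shared bases as left out of the counts, which is not known here. The place of MT-ATP8, with 161 exclusive bases of 207, depends on this.

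The remaining complex I mRNAs lay close together in level per length. MT-ND6 was at 2795, MT-ND2 (chrM:4470-5511, plus strand) at 2421, MT-ND4L at 2403, MT-ND5 at 2313 and MT-ND3 (chrM:10059-10404, plus strand) at 2117, and their ranges over libraries overlapped. MT-RNR1 (chrM:648-1601, plus strand), the RNA of the small ribosomal subunit, had a level per length of 1017, below that of every mRNA on average and far below MT-RNR2, from which it is separated only by MT-TV. These levels are those of libraries made for mRNA.

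**Figure D2:**
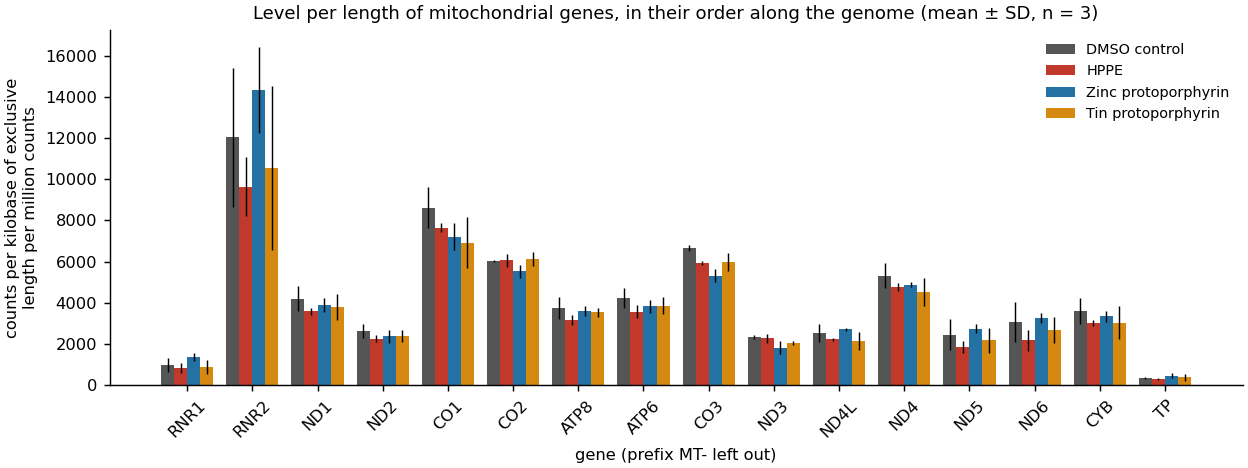
Mean level per length (CPM per kilobase of exclusive sequence) of the 16 members with the most counts in the 4 groups, in their order along the mitochondrial genome; bars start at 0 and error lines are SD over 3 libraries. MT-RNR2 and MT-CO1 stand highest, at 11633 and 7602 over all libraries, and MT-RNR1 and MT-TP lowest, at 1017 and 377.

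Within the mitochondrial mRNA counts the composition was steady for some members and not for others. MT-CO1 took 24.8% and MT-ND4 14.2% of these counts on average. The share of MT-ND4 varied least between libraries, with a highest-to-lowest ratio of 1.07, followed by MT-ND1 with 1.09. The share of MT-ND6 varied most, from 2.19% in HPPE 3 to 4.09% in zinc protoporphyrin 3, a ratio of 1.87, and that of MT-ND5 had a ratio of 1.78. By group, MT-ND6 made up 3.06% ± 0.62 in the control, 2.53% ± 0.47 with HPPE, 3.67% ± 0.39 with zinc and 3.09% ± 0.23 with tin protoporphyrin (SD, n = 3). The two-sided exact permutation test over 4 groups gave p = 0.0823. With 1 library left out, the same exact test ran from p = 0.0281 (without DMSO control 3) to p = 0.225, and gave p = 0.0453 without HPPE 1. HPPE and zinc protoporphyrin did not overlap in this share either (exact permutation p = 0.1, adjusted p = 0.3 over the 6 pairs).

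Most tRNA genes had no counts. Of the 22, 13 were at 0 in every library, which by the limit of 3 counts allows up to 0.328 unscaled CPM in the deepest and 2.24 in the shallowest library. The other 9 held 2282 counts over all 12 libraries, and 2125 of these were in MT-TP (chrM:15956-16023, minus strand), the tRNA for proline. Its sequence is shown because it is the tRNA member with a usable count, with the anticodon in capitals.
MT-TP: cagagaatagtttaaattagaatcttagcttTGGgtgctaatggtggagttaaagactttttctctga
MT-TP had 216, 178 and 33 counts in the control libraries, 190, 184 and 55 with HPPE, 31, 270 and 323 with zinc protoporphyrin and 140, 349 and 156 with tin protoporphyrin. MT-TY, the tRNA for tyrosine, had 1 to 10 counts in a library, and MT-TF, for phenylalanine, 0 to 8. Reads of mature tRNAs and of longer precursors cannot be told apart in these counts.

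Changes with the compounds were tested with edgeR on 16366 genes that passed the filter on low counts, with a gene called at a Benjamini-Hochberg adjusted p under 0.05 over all of them. Of the 37 members, 17 passed the filter: the 13 mRNAs, both rRNAs, MT-TP and MT-TY. Values per library below are CPM with library sizes scaled by edgeR's TMM method. The 3 comparisons with the control share the control libraries and are not independent of each other.

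HPPE against the control gave no call among the 17 members, where 4.04% of all tested genes were called. At an unadjusted p under 0.05 there were 2 members, MT-ND6 and MT-ATP8, against 17.7% of all genes, and DESeq2 also called none. All 13 mRNAs had negative log2 fold changes, that of MT-CO2 turning sign with unscaled library sizes or a filter of 1 CPM in 3 libraries, with a median of -0.24, while the median over all tested genes was 0.02. The median of the mRNAs was -0.13 without DMSO control 1 and -0.36 without DMSO control 3. With 1 library left out 0 to 10 members had an unadjusted p under 0.05, but the share of all genes was not computed for these fits. MT-ND6 had the lowest value. Its level was 2132, 1724 and 1022 CPM in the control and 1443, 1043 and 943 CPM with HPPE, so that the third control library lay among the treated ones. The log2 fold change was -0.51 ± 0.22 (SE; adjusted p = 0.232, edgeR). Without DMSO control 3, MT-ND6 was called at -0.75 (adjusted p = 0.0453) and MT-ATP8 at -0.39 (adjusted p = 0.0227), where 2.83% of all tested genes were called lower.

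MT-ND5, the next complex I member in size of the difference, had 5948, 4684 and 2903 CPM in the control and 3980, 3134 and 3017 with HPPE. Its control libraries spanned the treated ones, and the log2 fold change was -0.42 ± 0.22 (SE; adjusted p = 0.330, edgeR). MT-CYB had a log2 fold change of -0.27 ± 0.17 (SE) and MT-ATP8 and MT-ATP6 each one of -0.26, with SE of 0.11 and 0.12. Of the complex IV members, MT-CO3 was the one member of the 17 whose control and HPPE libraries did not overlap, a pattern that 9.44% of all tested genes showed in the same direction. It had 5520, 5263 and 4932 CPM in the control and 4587, 4738 and 4589 with HPPE, a log2 fold change of -0.18 ± 0.10 (SE; adjusted p = 0.357, edgeR). MT-CO2, in contrast, had 4264, 4174 and 4007 CPM in the control and 3909, 4300 and 4224 with HPPE. Its log2 fold change was -0.0018 ± 0.0910 (SE), with a 95% interval from -0.19 to 0.19, and its sign turned with the scaling. The rRNAs had log2 fold changes of -0.34 ± 0.24 for MT-RNR2 and -0.25 ± 0.27 for MT-RNR1 (SE). Without DMSO control 1 the latter was 0.11.

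**Figure D3:**
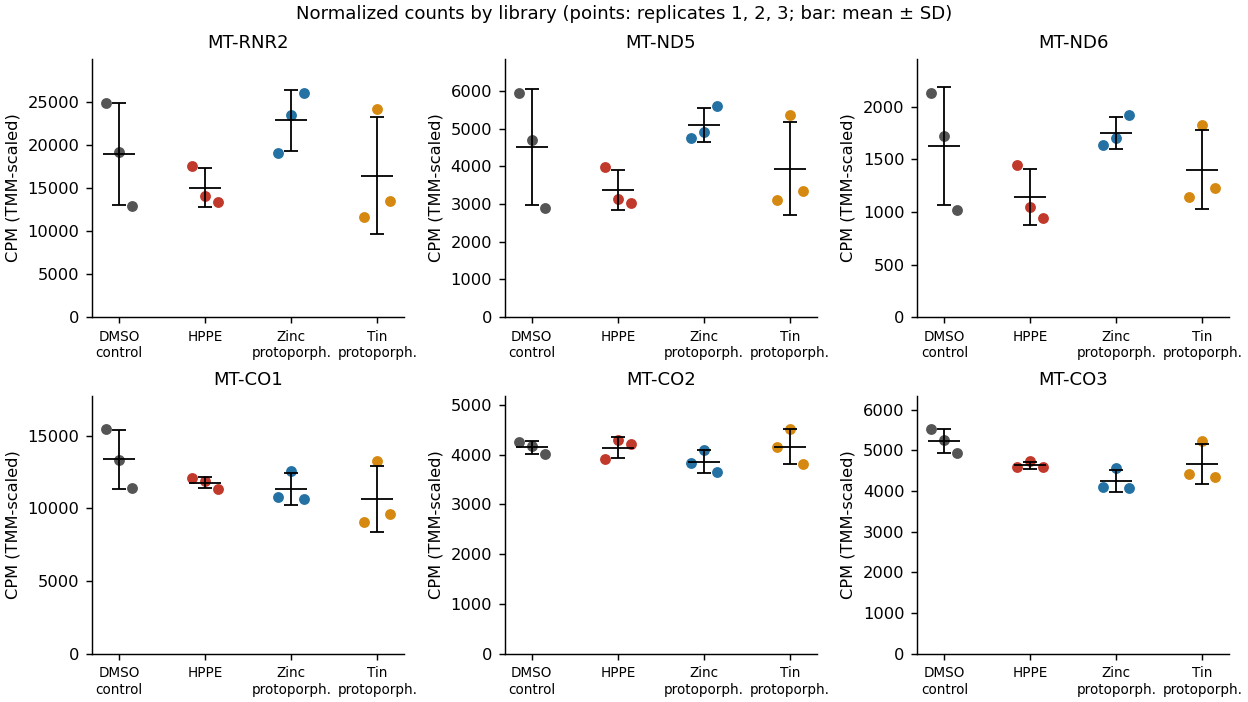
TMM-scaled CPM of 6 members in each library; points are replicates 1, 2 and 3 from left to right and bars the mean ± SD, and each vertical axis starts at 0. In the control and tin protoporphyrin groups the libraries of MT-RNR2, MT-ND5 and MT-ND6 lie far apart (2903 to 5948 CPM for MT-ND5 in the control), while MT-CO2 stays between 3646 and 4511 CPM in all 12 libraries.

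Zinc protoporphyrin against the control also called none of the 17 members with edgeR, where 2.25% of all tested genes were called. At an unadjusted p under 0.05 there were 2 members, MT-CO3 and MT-ND3, against 18.6% of all genes. The 13 mRNAs had a median log2 fold change of -0.11, with 10 below and 3 above 0, beside a median of -0.0038 over all genes. It was -0.0071 without DMSO control 1, with 7 of 13 below 0, and -0.22 without DMSO control 3, with 13 of 13 below 0. Without zinc protoporphyrin 1 and 2 in turn it was -0.07 and -0.17. MT-CO3 had 4098, 4557 and 4085 CPM with zinc protoporphyrin, all below the 3 control libraries given above, a separation in this direction that 10.4% of all genes showed. The log2 fold change was -0.30 ± 0.10 (SE; adjusted p = 0.103, edgeR). DESeq2 called MT-CO3 (-0.30, adjusted p = 0.0454; 0.354% of all genes called lower), as did edgeR with unscaled library sizes (-0.32, adjusted p = 0.0383; 0.379% of all genes lower). MT-ND3 had 841, 843 and 745 CPM in the control and 646, 754 and 527 with zinc protoporphyrin, which overlapped, and a log2 fold change of -0.34 ± 0.12 (SE; adjusted p = 0.134, edgeR). MT-CO1, the catalytic subunit of complex IV, had a log2 fold change of -0.24 ± 0.14 (SE).

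The rRNAs lay on the other side of 0 in this comparison. MT-RNR1 had 1352, 799 and 661 CPM in the control and 1211, 1249 and 1579 with zinc protoporphyrin, so the first control library lay within the treated range. Its log2 fold change was 0.52 ± 0.27 (SE; adjusted p = 0.308, edgeR). MT-RNR2 had a log2 fold change of 0.27 ± 0.24 and MT-TP one of 0.47 ± 0.25 (SE; adjusted p = 0.580 and 0.331, edgeR). MT-ND5, MT-ND4L and MT-ND6 were the 3 mRNAs above 0, with log2 fold changes of 0.17, 0.11 and 0.10. Without DMSO control 3 these became -0.07, -0.04 and -0.14.

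Tin protoporphyrin against the control called no member with edgeR or DESeq2, where edgeR called 2.28% of all tested genes. MT-CO1 was the 1 member with an unadjusted p under 0.05, against 14.7% of all genes. The median log2 fold change of the 13 mRNAs was -0.20, with 12 below 0, beside a median of 0.01 over all genes. It was -0.07 without DMSO control 1, -0.10 and -0.12 without tin protoporphyrin 1 and 3, and -0.34 without tin protoporphyrin 2. With 1 library left out 0 to 11 members had an unadjusted p under 0.05, again without a computed share of all genes. MT-CO1 had 15447, 13318 and 11410 CPM in the control and 9078, 13244 and 9595 with tin protoporphyrin. Tin protoporphyrin 2 lay within the control range and the other 2 libraries below it, and the log2 fold change was -0.33 ± 0.14 (SE; adjusted p = 0.272, edgeR). Without tin protoporphyrin 2, edgeR called 4 members lower: MT-CO1 (-0.53, adjusted p = 0.0112), MT-CYB (-0.55, adjusted p = 0.0220), MT-ND4L (-0.50, adjusted p = 0.0287) and MT-ND4 (-0.41, adjusted p = 0.0343), where 1.4% of all genes were called lower. With all libraries these 3 last genes had log2 fold changes of -0.27, -0.27 and -0.24. MT-CO2 had 4157, 4511 and 3823 CPM with tin protoporphyrin, a log2 fold change of 0.0051 ± 0.0909 (SE) whose sign turned with the scaling.

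**Figure D4:**
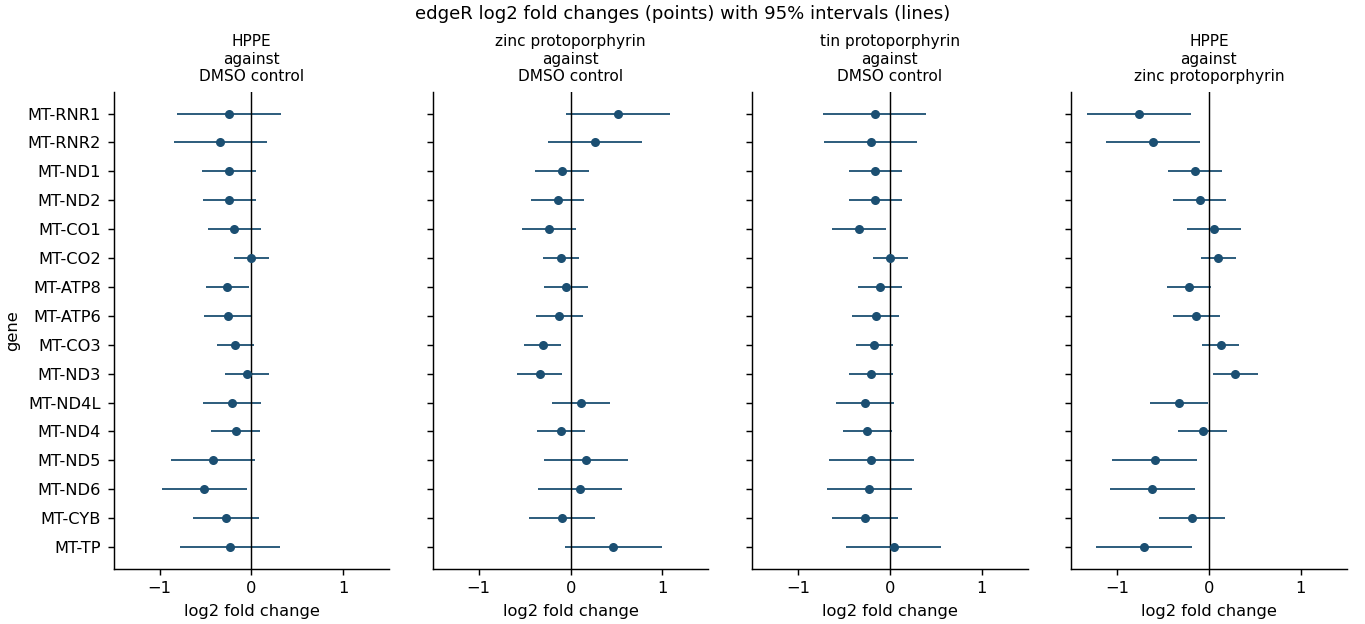
edgeR log2 fold changes (horizontal axis, points) with 95% intervals (lines) of 16 members in 4 comparisons, in genome order from top to bottom; MT-TY is left out for its low counts. For HPPE against the control the mRNA points lie below 0, with MT-CO2 near 0 and of either sign across scalings, and against zinc protoporphyrin the HPPE points of MT-RNR1, MT-RNR2, MT-ND5, MT-ND6 and MT-TP are the lowest, from -0.76 to -0.59.

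The zinc and tin compounds were set against each other at their common dose and time. No member was called, where 1 gene in all was called (0.00611%). Unadjusted p-values under 0.05 were found for 2 members, MT-RNR1 and MT-ND4L, against 13.3% of all genes, and DESeq2 called none. The median log2 fold change of zinc over tin for the 13 mRNAs was 0.07, with 3 below 0. It moved by over 1.5 times with the removal of any of the 6 libraries, from -0.02 without tin protoporphyrin 1 (7 of 13 below 0) to 0.24 without tin protoporphyrin 2, with 0.02 without tin protoporphyrin 3 and 0.12, 0.0047 and 0.11 without zinc protoporphyrin 1, 2 and 3. MT-RNR1 had 611, 1235 and 678 CPM with tin protoporphyrin and the zinc values given above, a log2 fold change of 0.68 ± 0.27 (SE; adjusted p = 0.353, edgeR) with a 95% interval from 0.12 to 1.24. MT-ND4L had 776, 829 and 808 CPM with zinc and 509, 793 and 555 with tin protoporphyrin. Its log2 fold change was 0.38 ± 0.15 (SE; adjusted p = 0.353, edgeR), with an interval from 0.06 to 0.70. MT-CO2 had a log2 fold change of -0.11, with an interval from -0.30 to 0.08. No other mRNA had an interval that left out 0, and the highest upper bound was that of MT-ND5, with an interval from -0.09 to 0.83. Without tin protoporphyrin 1 or 3, no member had an unadjusted p under 0.05, and the share of all genes was not computed. Without tin protoporphyrin 2, edgeR called MT-TP (0.90), MT-RNR2 (0.87), MT-ND4L (0.60) and MT-CYB (0.46) higher with zinc protoporphyrin, with adjusted p-values from 0.0138 to 0.0463. In that fit 4.6% of all genes were called higher and 1453 genes were called in all.

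HPPE and zinc protoporphyrin stood furthest apart. edgeR called 12.7% of all tested genes and none of the 17 members, of which 7 had an unadjusted p under 0.05, against 32.2% of all genes. DESeq2 called no member and had 6 at an unadjusted p under 0.05, a rule whose share of all genes was not computed for DESeq2. MT-RNR1, MT-RNR2, MT-ND4L, MT-ND5 and MT-ND6 were lower in every HPPE library than in every zinc protoporphyrin library, a pattern that 17.7% of all genes showed. MT-ND6 had 1443, 1043 and 943 CPM with HPPE and 1633, 1699 and 1921 with zinc protoporphyrin. Its log2 fold change was -0.61 ± 0.22 (SE; adjusted p = 0.0690, edgeR). MT-ND5 had 4752, 4908 and 5592 CPM with zinc protoporphyrin, against at most 3980 with HPPE, and a log2 fold change of -0.59 ± 0.22 (SE; adjusted p = 0.0756, edgeR).

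The rRNAs and MT-TP pointed the same way. MT-RNR2 had 17591, 14082 and 13341 CPM with HPPE and 19029, 23409 and 26040 with zinc protoporphyrin, a log2 fold change of -0.61 ± 0.24 (SE; adjusted p = 0.0971, edgeR). MT-RNR1 had 1072, 652 and 656 CPM with HPPE and a log2 fold change of -0.76 ± 0.27 (SE; adjusted p = 0.0659, edgeR). MT-TP, whose groups overlapped, had one of -0.70 ± 0.25 and MT-ND4L one of -0.32 ± 0.15 (SE). In the opposite direction, MT-CO3 was higher in every HPPE library, as 19% of all genes were, with a log2 fold change of 0.13 ± 0.10, and MT-ND3 had one of 0.29 ± 0.12 (SE).

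The calls of these members changed with the fit and with the libraries kept. When the fit held the 6 HPPE and zinc protoporphyrin libraries alone, edgeR called 6 members lower with HPPE: MT-ND5 (-0.59, adjusted p = 3.63e-04), MT-TP (-0.72), MT-ND4L (-0.33), MT-RNR2 (-0.61), MT-ND6 (-0.62) and MT-ATP8 (-0.22). That fit called 4267 genes in all, 13.1% of those tested as lower, against 2078 in the fit of 12 libraries. The fold changes moved little between the fits (-0.59 and -0.59 for MT-ND5), and the SE of MT-ND5 was 0.10 in the smaller fit and 0.22 in the larger. Without HPPE 1, MT-RNR1 (-1.04, adjusted p = 0.0437) and MT-ND6 (-0.82, adjusted p = 0.0498) were called lower (5.28% of all genes), and without zinc protoporphyrin 2, MT-ND3 (0.43, adjusted p = 0.0451) was called higher (2.99% of all genes). Members with an unadjusted p under 0.05 numbered 1 to 7 with 1 library left out, and the share of all genes was not computed for these fits. With HPPE 2 and HPPE 3 summed as 1 library, an alternative chosen after seeing the data, no member was called.

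HPPE against tin protoporphyrin gave no call and no member with an unadjusted p under 0.05 with edgeR or DESeq2. In the edgeR fit 1.45% of all tested genes were called and 13.1% had an unadjusted p under 0.05. The median log2 fold change of the 13 mRNAs was -0.0075, with 9 below 0. Without tin protoporphyrin 2 the median was 0.08, with 2 of 13 below 0. That fit had 4 members at an unadjusted p under 0.05, and its share of all genes was not computed. Without tin protoporphyrin 1 and 3 the median was -0.15 and -0.11, each with 11 of 13 below 0. The lowest value with all libraries was that of MT-ND6, -0.29 ± 0.22 (SE), with a 95% interval from -0.75 to 0.17.

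Libraries of 1 group differed from each other along a trend that ran through the nuclear genes as well. The first principal component of the deviations from the group means, computed over 10949 nuclear genes with a mean log2 CPM above 3, held 52.1% of their variance and is called the library axis here. Gene loadings on it correlated with transcript length across 10929 genes (Spearman rho 0.63, a description, since genes are not independent replicates). Scores were 0.40, 0.17 and -0.57 in the control, 0.21, -0.08 and -0.13 with HPPE, -0.22, -0.04 and 0.26 with zinc and -0.36, 0.41 and -0.05 with tin protoporphyrin. Of the libraries whose removal changed calls above, DMSO control 3 and tin protoporphyrin 2 had the lowest and the highest score, while HPPE 1 (0.21) and zinc protoporphyrin 2 (-0.04) lay between.

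The mitochondrial mRNA share followed this axis over the 12 libraries, with Pearson r = 0.72 (permutation p = 0.00852, adjusted p = 0.0170 over 2 relations) and Spearman rho = 0.80 (permutation p = 0.00250, adjusted p = 0.00500). Shares were shuffled over all 12 libraries with their group means left in, while the axis was computed from deviations from group means. These p-values therefore do not take the 4 groups into account. Without DMSO control 3 and tin protoporphyrin 2, r was 0.76. The relation with total counts was r = 0.33 (permutation p = 0.297) and rho = 0.29 (permutation p = 0.353), with r = 0.30 without the 2 libraries farthest from the median depth.

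Members differed in how closely their own deviations from the group means followed the axis. As descriptions over the 12 libraries, Pearson r was 0.97 for MT-ND5, 0.96 for MT-ND6 and MT-RNR2, 0.92 for MT-ND4L, 0.90 for MT-ND4 and 0.88 for MT-RNR1. It was 0.63 for MT-CO3, 0.22 for MT-CO2 and 0.15 for MT-ND3. From the lowest to the highest score, the fitted level of MT-RNR1 and MT-RNR2 differed 2.14-fold and 2.09-fold, and that of MT-ND6 and MT-ND5 1.98-fold and 1.96-fold. MT-CYB gave 1.56-fold, MT-CO1 1.34-fold, MT-CO3 1.12-fold and MT-CO2 1.04-fold. The 5 members that were lower in every HPPE than in every zinc protoporphyrin library had r from 0.88 to 0.97. MT-ND4, with r = 0.90, and MT-ATP6, with r = 0.88, did not separate these groups. The axis is centred within each group and holds no difference between groups, so a link between the 2 patterns was not tested.

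**Figure D5:**
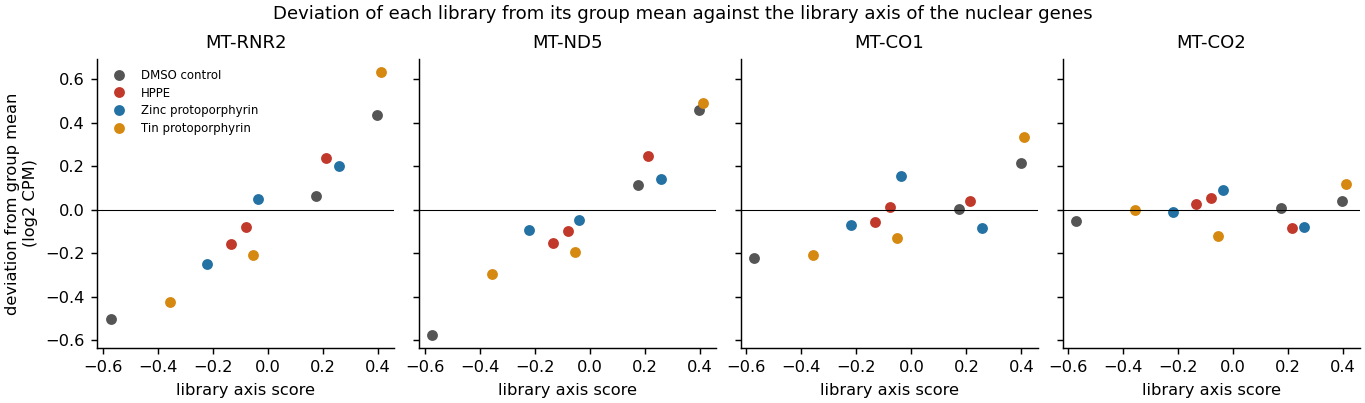
Deviation of each library from its group mean (vertical axis, log2 CPM) against its score on the library axis of the nuclear genes (horizontal axis, no unit) for 4 members; points are single libraries, coloured by group. MT-RNR2 and MT-ND5 follow the axis (r = 0.96 and 0.97), MT-CO1 less steeply (1.34-fold over the range), and MT-CO2 stays near 0 (r = 0.22).

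With the axis score as a covariate in edgeR, 96 of 102 member values had a smaller SE, and the 6 of MT-ND3 had a larger one (0.140 against 0.115 for HPPE against the control). The axis scores are centred within each group, so the covariate had little room to move differences between groups. Fold changes that stayed close therefore do not test the part of the library trend in them. Log2 fold changes moved by over 0.1 in 6 values, 3 of MT-TP and 3 of MT-TY. That of MT-TP went from -0.24 to -0.01 for HPPE, from 0.47 to 0.65 for zinc and from 0.04 to 0.23 for tin protoporphyrin against the control. MT-ND6 had a log2 fold change of -0.46 ± 0.06 (SE) for HPPE against the control, compared with -0.51 ± 0.22 without the covariate. HPPE against the control then gave 9 members lower and 0 higher, where 7.43% of all tested genes were called lower. Tin protoporphyrin against the control gave 8 lower and 0 higher (5.71% of all genes lower). Zinc protoporphyrin against the control gave 2 lower, MT-CO3 and MT-CO1, and 3 higher, MT-ND5, MT-RNR2 and MT-TP (11.6% of all genes lower and 13.7% higher). HPPE against zinc protoporphyrin gave 9 lower (16.3% of all genes), HPPE against tin protoporphyrin 3 lower (7.53%), and zinc against tin protoporphyrin 6 higher (7.41%). The axis was computed from the same deviations that the model takes as error, so these p-values are too small by construction and the counts are given as a description. MT-CO2 was called in none of the 6 comparisons in this fit.

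Nuclear genes that act on mitochondrial DNA and RNA were examined as lists. Of the genes for transcription and replication of mitochondrial DNA, 17 of 17 passed the filter, of those for processing and stability of its RNA 18 of 18, and of regulators of mitochondrial biogenesis 6 of 7, PPARGC1A being the one below the filter. None of the tested genes of these lists was called by edgeR in any comparison with the control. TFAM, which packages mitochondrial DNA and starts its transcription, had 94.0 CPM in the control on average and 95.9 with HPPE, 84.3 with zinc and 92.5 with tin protoporphyrin. POLRMT, the mitochondrial RNA polymerase, stood at 81.6 CPM in the control and at 81.7, 81.7 and 86.3 with HPPE, zinc and tin protoporphyrin, and its log2 fold changes against the control were -0.0025, -0.02 and 0.08 with SE of 0.07 to 0.08. TFB2M, which opens the promoter, had log2 fold changes of 0.25, -0.15 and 0.14 in the same order.

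LRPPRC, which with its partner SLIRP protects mitochondrial mRNAs, had 496 CPM in the control and 451, 476 and 436 with HPPE, zinc and tin protoporphyrin. Its log2 fold changes were -0.14, -0.06 and -0.19, each with an SE of 0.10. SLIRP had log2 fold changes of 0.37 ± 0.17, 0.09 ± 0.18 and 0.17 ± 0.17 (SE). The 1 gene of these lists called anywhere was REXO2, an exonuclease that removes short RNA in mitochondria, at 13.5 CPM with HPPE and 9.65 with zinc protoporphyrin (log2 fold change 0.54 ± 0.16 SE, adjusted p = 0.0395, edgeR). In that comparison 6.44% of all tested genes were called higher. REXO2 had 8.84 CPM in the control, and its log2 fold change for HPPE against the control was 0.56, without a call.

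The mitochondrial mRNAs were also set against 30 nuclear genes for subunits of the respiratory complexes and the ATP synthase. The ratio of their summed counts was 29.4, 25.5 and 16.7 in the control, 21.9, 18.5 and 17.2 with HPPE, 21.7, 25.1 and 25.8 with zinc and 16.2, 28.6 and 19.1 with tin protoporphyrin. The control and tin groups spanned the others, and an exact permutation test over the 4 groups on the log2 scale gave p = 0.539. Within every group the ratio rose in the order of the library axis scores given above, and the part of that axis in the ratio was not tested. None of the 30 nuclear subunits was called against the control. For HPPE against zinc protoporphyrin, 5 of 30 were called higher, where 6.44% of all tested genes were, and 28 of 30 had positive log2 fold changes with a median of 0.35. These were ATP5MC3 of the ATP synthase (0.66 ± 0.16 SE, adjusted p = 0.0172, edgeR), COX5A (0.61 ± 0.15 SE) and COX6C (0.77 ± 0.21 SE) of complex IV, and SDHC (0.37 ± 0.10 SE) and SDHB (0.52 ± 0.15 SE) of complex II, which has no mitochondrially encoded subunit. In the same comparison the mitochondrial mRNAs had a median of -0.14, with 9 of 13 below 0, and the median was -0.08 without HPPE 3 and -0.07 without zinc protoporphyrin 2.

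Copies of mitochondrial genes in nuclear DNA can take up reads of the members, and how reads that match both were counted is not given in the sources used here. Of the listed copies, 6 had a mean of at least 10 counts a library. MTATP6P1 had 636 to 4837 counts, MTND2P28 100 to 846, MTCO1P12 49 to 398, MTND4P12 40 to 245, MTCO3P12 17 to 71 and MTND5P11 0 to 32. The largest of these, MTATP6P1, had 636 counts beside 3014 of MT-ATP6 in zinc protoporphyrin 1, and 4837 beside 25087 in tin protoporphyrin 2. MTND5P11 was called higher with zinc protoporphyrin than in the control (log2 fold change 2.02 ± 0.42 SE, adjusted p = 0.0173, edgeR) and lower with HPPE than with zinc protoporphyrin (-1.68 ± 0.38 SE, adjusted p = 0.0146, edgeR). Its counts were 6, 8 and 0 in the control, 8, 10 and 3 with HPPE, 1, 28 and 32 with zinc and 11, 14 and 11 with tin protoporphyrin. A member's reads placed on such a copy cannot be told apart from transcription of the copy.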

How the data were processed

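RNA of SH-SY5Y cells was profiled in 12 libraries for mRNA sequencing (MGIEasy RNA Library Prep Set, as the labels' protocols state). The values the authors deposited are raw counts, whole numbers of reads assigned to each gene. The submitters' processing notes name fastp 0.21.1, STAR 2.7.7a, featureCounts and GRCh38. The annotation release, the strand setting and the treatment of reads that match several places or overlapping genes are not given in the sources used here. All 37 members matched GENCODE release 29 in identifier and version, which gave positions and sequences. Members and gene lists were chosen with earlier results of these data known. Named were all members that passed the filter, 6 fixed regulators, called genes of the machinery lists, nuclear copies with a mean of at least 10 counts, and at most 5 nuclear subunits of the comparison with the most calls.

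Counts were tested with edgeR 4.0.16 in R 4.3.3 (filterByExpr by group, TMM, glmQLFit with robust estimation, glmQLFTest, all 12 libraries in 1 fit with a mean per group, 6 comparisons, two-sided). The 16366 genes tested held 99.6% of counts, and the biological coefficient of variation was 0.0913. P-values were adjusted by Benjamini-Hochberg over all genes tested. SE were derived from the F statistic. Shares were compared by exact permutation over libraries (scipy 1.17.1), and correlations with 100000 permutations. On simulated counts for HPPE against the control (15900 genes) the edgeR step recovered 77.6% of 2-fold and 42.4% of 1.5-fold changes with 7.81% false calls.

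Replicate numbers come from the labels, which do not say what they share. Deviations from the group means correlated above 0.1 in 5 of 18 same-numbered pairs, so the libraries were not treated as paired. Alternatives were other filters, scalings and fits, DESeq2 1.42.0, the replicate number as a block, the library axis as a covariate and the removal of each library. HPPE replicates 2 and 3 were summed in an alternative chosen after seeing the data.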

Additional observations from a re-analysis of the deposited data

How the results depend on the processing

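edgeR called no member in the main fit of any of the 6 comparisons, and this held with RLE size factors, library sizes from nuclear genes, non-robust estimation, a filter of 1 CPM in 3 libraries and the replicate number as a block (0 members called), and in the 3 comparisons of HPPE also with HPPE 2 and 3 summed. The axis covariate gave 9 called members for HPPE against the control, 5 for zinc and 8 for tin protoporphyrin against the control, 6 for zinc against tin, 9 for HPPE against zinc and 3 for HPPE against tin protoporphyrin; its p-values are too small by construction. The fit of the compared groups only gave 6 for HPPE against zinc protoporphyrin. Without a filter there were 2 for zinc against the control, 1 for tin against the control and 1 for HPPE against zinc protoporphyrin. Of all 38574 genes in that setting, 904, 504 and 3186 were called in these comparisons. DESeq2 and unscaled library sizes each gave 1, MT-CO3, for zinc against the control. Removing 1 library gave 0 to 2 members for HPPE against the control, 0 to 4 for tin against the control and for zinc against tin protoporphyrin, and 0 to 2 for HPPE against zinc protoporphyrin. Shares of all genes for the other fits with a called member are given in the results. The p over 4 groups of the MT-ND6 share ran from 0.0281 to 0.225. The cause of these shifts was not tested.

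The sign of MT-CO2 turned for HPPE against the control with the filter of 1 CPM in 3 libraries (0.00062) and unscaled sizes (0.0071), and for tin against the control with RLE (-0.0014), nuclear library sizes (-0.0066) and DESeq2 (-0.0016). Leaving out 1 library at a time, several log2 fold changes named in the report turned sign, among them the following. Against the control, MT-CO2 ran from -0.038 to 0.033 for HPPE and from -0.065 to 0.061 for tin. For zinc against the control, MT-ND4L ran from -0.043 to 0.23, MT-ND5 from -0.067 to 0.41 and MT-ND6 from -0.14 to 0.34. MT-RNR1 ran from -0.53 to 0.11 for HPPE and MT-RNR2 from -0.60 to 0.032 for tin, both against the control. Between compounds, the median of the mRNAs ran from -0.016 to 0.24 for zinc against tin. For HPPE against tin protoporphyrin this median ran from -0.15 to 0.085. Of all 102 member values, 33 had another sign in at least 1 alternative, 12 of them for HPPE against tin, 6 each for zinc and tin against the control, 5 for zinc against tin, 3 for HPPE against the control and 1 for HPPE against zinc protoporphyrin.

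All-gene calls moved with the fit as well: for HPPE against the control from 662 to 412 with the block and 2655 with the axis, for zinc from 369 to 133 and 4144, for tin from 373 to 209 and 2189, and for HPPE against zinc protoporphyrin from 2078 to 758 and 5674. Of the tRNAs only MT-TP had more than 10 counts in any library, which limits the precision of the others.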
